A study of Mus musculus with 53 samples.

Results

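The comparison described here is that of sulindac-treated A mice with untreated A mice at day 30 after induction, 4 libraries against 4, chosen by their labels out of 53 samples in all. A mice carry VilCreER and Alk5fl/fl on a mixed C57BL/6J N6 background, so that tamoxifen given to adults of 6 to 12 weeks deletes Alk5 (Tgfbr1, the type I receptor for TGFβ) in the intestinal epithelium. Both groups carried this genotype by their labels. The treated mice drank sulindac at 0.4 g/L from the first day after tamoxifen for 14 days and then normal water, so the tissue was taken 16 days after the drug had stopped. The labels give no drug treatment for the other 4 A mice, and whether they received the phosphate buffer without drug is not given in the sources used here. Each library is bulk RNA-seq of proximal colon, labelled as a separate sample and taken here as 1 mouse. The 4 day-30 WT libraries, VilCreER+ without a targeted allele, on the same background and without drug, are given beside them. Day-30 BA mice, labelled Braf V600E/+ and Alk5fl/fl, 5 with antibiotics and 5 without, serve for a second drug comparison. No WT group with sulindac was analysed here, so a drug effect that depends on the deletion and one that does not cannot be told apart.

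Sulindac is a non-steroidal anti-inflammatory drug that blocks the cyclooxygenases Ptgs1 and Ptgs2, the enzymes that turn arachidonic acid into prostaglandin H2. Terminal synthases convert this intermediate into the separate prostaglandins, which act on receptors of their own and are taken up and degraded by Slco2a1 and Hpgd. In the colon, prostaglandin E2 supports epithelial renewal, mucus and repair, and the study gave sulindac at high dose to injure the proximal colonic epithelium for a short time. The question asked of the libraries was therefore what of such an injury, in mice of this Alk5fl/fl genotype, was still visible in tissue RNA at day 30.

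The 8 libraries held 14816807 to 19267386 reads on genes (in CPM, the usual count of a gene relative to all reads of its library, 3 reads correspond to 0.156 to 0.202) and 26376 to 27895 genes with at least 1 read. CPM values of single genes are scaled by TMM library factors, and a difference between groups is given as the fitted log2 fold change, sulindac-treated A over A, on which 1 is a doubling. Colonic epithelial markers were present in all libraries. Tgfbr1 itself stood at 52.6, 53.9, 44.03 and 56.5 CPM in the sulindac-treated A mice and at 33.2, 38.95, 58.9 and 43.7 CPM in the A mice, against 64.1, 33.99, 45.3 and 56.7 CPM in WT. The 3 groups overlapped. In whole tissue, where stromal cells keep the gene, this level is no check of the deletion. Gm13394, a gene called between A and WT and annotated as a processed pseudogene with 96.3% of its 36-base stretches shared with Gapdh, was at 68.8, 89.6, 127 and 110.5 CPM with sulindac and at 126, 126, 105 and 109.6 CPM without, and under 1 CPM in the 4 WT libraries.

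Replicate 1 of the sulindac group stood apart from the other 7 A libraries in a way that has to precede the results. Between A and WT, edgeR's quasi-likelihood test with Benjamini-Hochberg adjustment called 17 genes higher (0.096% of 17713 tested) and 8 lower (0.0452%) at the 0.05 level, with 1717 (9.69%) at an unadjusted p under 0.05. Of the 25 called genes, 16 (64%) lay in one stretch of chromosome 6, at chr6:124624625-137463233 (GRCm38, 12.8 Mb). This stretch holds 149, or 0.841%, of the tested genes. Its limits are the start of the first and the end of the last of these 16 genes. The 2 shares are therefore a description and no test. Of the 16, 9 were higher and 7 lower in A than in WT. On a scale on which the WT mean is 0 and the A mean is 1, the median position of the 16 genes was 1.04, 1.03 and 0.988 in sulindac replicates 2, 3 and 4 and 0.952 to 1.01 in the A mice that set the scale, but 0.39 in sulindac replicate 1, with single genes from -0.882 to 0.851. It lay outside the A range on the WT side at 15 of the 16 genes, against 2 or 3 genes in each of the other sulindac libraries. Over the 9 called genes elsewhere in the genome its median was 0.708, beside 0.766, 0.729 and 0.946 in replicates 2, 3 and 4. Replicate 1 lay outside the A range on the WT side at 6 of the 9 genes, against 5, 5 and 3 in those replicates. These 9 include Gm13394, which shares 96.3% of its 36-base sequences with Gapdh on chromosome 6, so the 2 are not independent.

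Gapdh, the glycolytic enzyme at chr6:125161715-125166467, was at 79.9, 17.98, 19.8 and 24.5 CPM in the sulindac libraries, 31.7, 18.3, 18.9 and 21.1 CPM in A and 108, 142, 110.2 and 109 CPM in WT. Sulindac replicate 1 thus lay between the A and the WT levels, while replicates 2 to 4 lay among the A mice. The antisense transcript Gm36640 was at 51.7, 1.34, 7.71 and 7.06 CPM with sulindac, 3.38 to 12.6 CPM in A and 42.03 to 71.3 CPM in WT. It overlaps the position of Pbp2, a phosphatidylethanolamine-binding protein gene, which was at 10.96 CPM in sulindac replicate 1, at most 0.0671 CPM in the other 7 A libraries and 4.52 to 12.2 CPM in WT. For Pbp2 and its neighbours Gm44274 and Gm44275, replicate 1 was above the WT mean. Styk1, a receptor-like kinase gene, was at 93.97 CPM in that library, 55.1 to 68.1 CPM in A and 109 to 138 CPM in WT. Gm13394, on chromosome 2, was lower in replicate 1 than in the other 7, at 68.8 CPM, but far above WT. How reads shared by Gm13394 and Gapdh were divided between them is not known, so neither level alone gives the RNA of the enzyme. Whether the genotype of this mouse differs at these loci was not tested. For many of the values that this library moves, the value without it is also given. C1s2, Gm44958 and Gapdh share 35.9%, 69.3% and 27.3% of their 36-base stretches with other genes, so their levels depend on how such reads were counted.

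**Figure D1:**
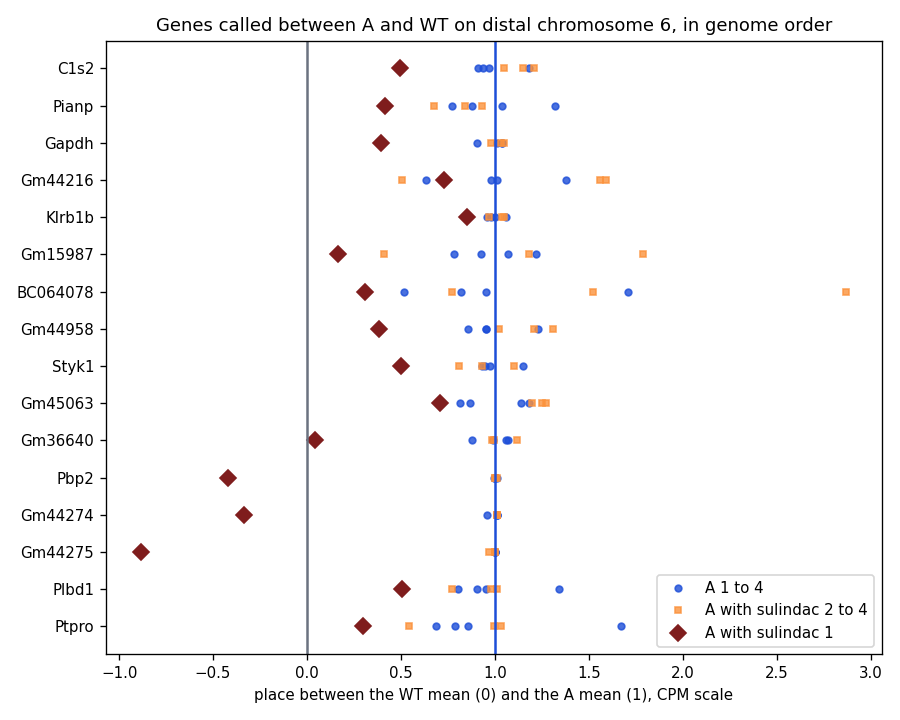
The 16 genes of distal chromosome 6 called between A and WT are drawn in genome order, with each library placed between the WT mean (0) and the A mean (1) on the CPM scale (x axis). Circles are the 4 A mice, squares sulindac replicates 2 to 4 and diamonds sulindac replicate 1, whose median of 0.39 lies away from the A mean of 1 and beyond the A range in 15 of the 16 genes.

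No gene passed the test between the sulindac-treated and the untreated A mice. Of 17568 genes tested with edgeR's quasi-likelihood test, 0 (0%) passed the adjusted threshold of 0.05 as higher and 0 (0%) as lower. At an unadjusted p under 0.05 stood 460 (2.62%) of them, 155 higher (0.882%) and 305 lower (1.74%). limma with voom also called 0 genes, and DESeq2 called 5, all lower, namely Cfd, Igkv14-111, Gm42047, Inmt and Ighv5-4. Cfd (complement factor D, an adipocyte product) was the 1 gene called when a replicate block was added or the filter on low counts was removed. The 2 groups lay no farther apart than mice within them. The median distance between 2 libraries (root mean square difference of log2 CPM) was 0.618 over the 12 pairs within groups and 0.601 over the 16 pairs between groups. Without replicate 1 of the sulindac group the count stayed at 0 called, with 331 genes at an unadjusted p under 0.05, and without any other single library it was also 0.

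The intervals show how large an effect these 8 mice leave possible. The 95% interval of the log2 fold change lay wholly between -1 and 1, that is within a 2-fold change either way, for 14258 genes (81.2%), within a 1.5-fold change for 7537 (42.9%) and within log2 values of -2 and 2 for 17242 (98.1%). The median distance from a log2 fold change to the end of its interval was 0.489, or 1.4-fold. Precision followed expression. Among genes with an average log2 CPM under 0 the interval stayed within a 2-fold change for 28.1%, from 0 to 3 for 66.6%, from 3 to 6 for 93.7% and from 6 upwards for 94.3%. Leaving out 1 library at a time gave 12910 to 13670 genes within a 2-fold change. Each interval covers 1 gene and is not adjusted for the number of genes, and it measures the spread between these mice.

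**Figure D2:**
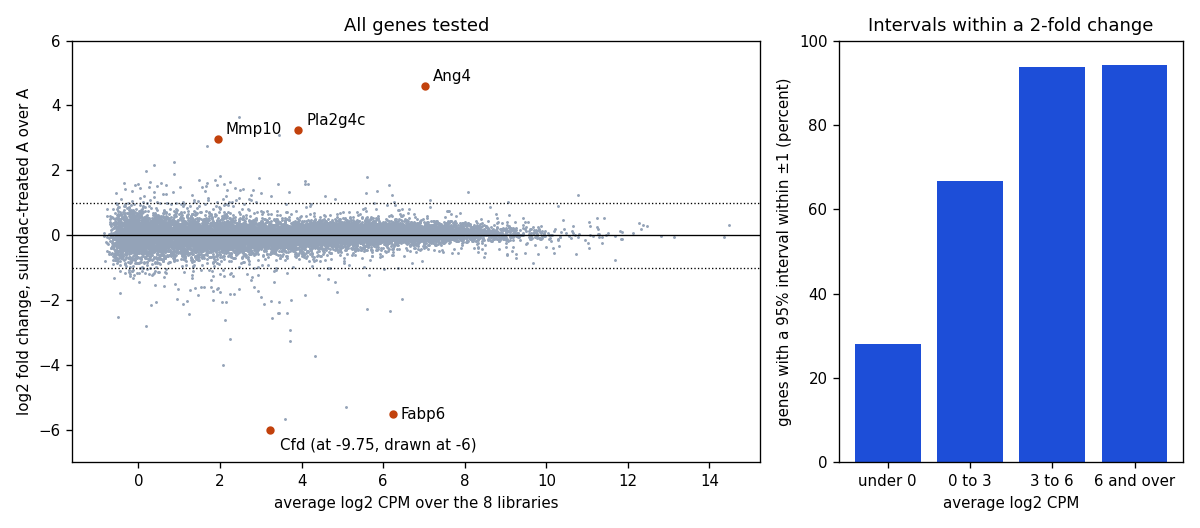
Left, the log2 fold change of sulindac-treated A over A (y axis) against the average log2 CPM (x axis) for the 17568 genes tested, with dotted lines at a 2-fold change, 5 genes named and Cfd drawn at the lower edge. Right, the percent of genes whose 95% interval lies within a 2-fold change, by average log2 CPM, which climbs from 28.1% to 94.3%.

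Genes of the prostaglandin and leukotriene pathway showed no common shift. Of 37 listed genes 33 were tested and Ptgds, Ptgdr, Ptgdr2 and Alox15 were too low. None was called, 18 of 33 had a positive log2 fold change, and the median was 0.0143, beside 0.00706 over all genes. The interval lay within a 2-fold change for 25 of the 33 (75.8%, against 81.2% of all genes). The pathway had 1 gene, Pla2g4c, at an unadjusted p under 0.05.

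The drug's targets were measured at moderate levels. Ptgs1, the constitutive cyclooxygenase (chr2:36230426-36252272), was at 46.4, 24.9, 23.6 and 41.8 CPM in the sulindac mice and 40.7, 35.4, 39.9 and 35.2 CPM in the A mice. Sulindac replicates 2 and 3 were below every A mouse and replicates 1 and 4 above every A mouse, so the groups overlapped, with a log2 fold change of -0.13 (95% interval -0.64 to 0.38). Ptgs2, the inducible cyclooxygenase (chr1:150100031-150108227), was at 15.3, 5.17, 6.90 and 21.8 CPM with sulindac and 6.24, 4.98, 12.5 and 6.10 CPM without. The highest values were those of sulindac replicates 4 and 1, followed by A replicate 3, and the log2 fold change was 0.74 (95% interval -0.27 to 1.75) at an unadjusted p of 0.136 in edgeR. Without sulindac replicate 4 it was 0.30 and without replicate 1 it was 0.61, and the value of Ptgs1 without replicate 1 was -0.32. A rise of Ptgs2 by more than 2-fold thus remained within the interval, whereas for Ptgs1 a 2-fold change in either direction did not.

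Upstream of the cyclooxygenases, phospholipases release arachidonic acid from membranes. Pla2g4a, the main cytosolic enzyme, was at 43.4, 45.7, 51.6 and 41.9 CPM with sulindac and 34.01, 37.2, 39.3 and 44.8 CPM without, a log2 fold change of 0.24 (95% interval -0.04 to 0.52). Pla2g4c (chr7:13324655-13360672), a related enzyme, had the largest value of the pathway, 3.23 (95% interval 0.99 to 5.49) at an unadjusted p of 0.0124 in edgeR. Its CPM were 4.96, 13.2, 1.62 and 79.97 with sulindac, 5.37, 0.729, 3.47 and 1.38 in A and 1.94, 0.923, 23.99 and 18.1 in WT. Sulindac replicate 4 alone carried most of this difference, and sulindac replicates 1 and 3 lay within the A range. Without replicate 4 the log2 fold change was 1.29. Pla2g2a, Pla2g5 and Pla2g10, of the secreted phospholipase family, and the activating protein Plaa had log2 fold changes of 0.55, 0.49, 0.16 and 0.11. Pla2g2a is annotated as a polymorphic pseudogene, so its transcript need not give an enzyme. Its level separated both A groups from WT, at 1.77 to 17.03 CPM with sulindac, 1.70 to 8.92 CPM in A and 0.0923 to 0.562 CPM in WT, although it was not called in either comparison.

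All 6 tested terminal synthases had intervals within a 2-fold change. Ptges, the inducible prostaglandin E synthase, was at 8.61, 7.89, 6.22 and 8.64 CPM with sulindac and 11.1, 8.81, 7.63 and 9.44 CPM without, a log2 fold change of -0.22 (95% interval -0.65 to 0.20). Ptges2 and Ptges3 were at -0.03 and 0.08, Hpgds (prostaglandin D synthase) at 0.28, Tbxas1 (thromboxane synthase) at -0.04 and Ptgis (prostacyclin synthase) at -0.42. Transport and breakdown were similarly bounded. Hpgd, the enzyme that inactivates prostaglandin E2, was at 158, 199, 183 and 202 CPM with sulindac and 139, 213, 125 and 218 CPM without, with a log2 fold change of 0.10 (95% interval -0.35 to 0.56). The uptake carrier Slco2a1 was at -0.05 (95% interval -0.58 to 0.49), the exporter Abcc4 at 0.13 (95% interval -0.25 to 0.51), and Ptgr1, Ptgr2 and Cbr1, which reduce prostaglandins and their metabolites, at -0.08, 0.07 and -0.10.

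Among receptors, Ptger4, through which prostaglandin E2 acts on epithelium and immune cells, was at 29.6, 31.5, 32.6 and 36.1 CPM with sulindac and 41.6, 28.2, 30.6 and 30.31 CPM without. The A range held all 4 sulindac mice, and the log2 fold change of 0.00 (95% interval -0.33 to 0.33) was tightly bounded. Ptger1, Ptger2 and Ptger3 were at 0.08, -0.25 and -0.22, where the level of Ptger1 depends on how reads shared between genes were counted. The prostacyclin receptor Ptgir was at 1.83, 2.82, 1.49 and 2.48 CPM with sulindac and 2.95, 3.22, 2.96 and 3.08 CPM without. It was the only tested pathway gene whose groups did not overlap, with a log2 fold change of -0.48 (95% interval -1.04 to 0.07), beside 1.2% of all genes that were lower without overlap. The thromboxane receptor Tbxa2r was at -0.51 (95% interval -1.33 to 0.31) and the prostaglandin F receptor Ptgfr at -0.45 (95% interval -1.34 to 0.44). In the lipoxygenase branch Alox5, Alox5ap, Alox12, Ltc4s and Lta4h were at 0.31, 0.10, -0.14, 0.06 and 0.01, and the leukotriene receptor Cysltr1 at -0.05.

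**Figure D3:**
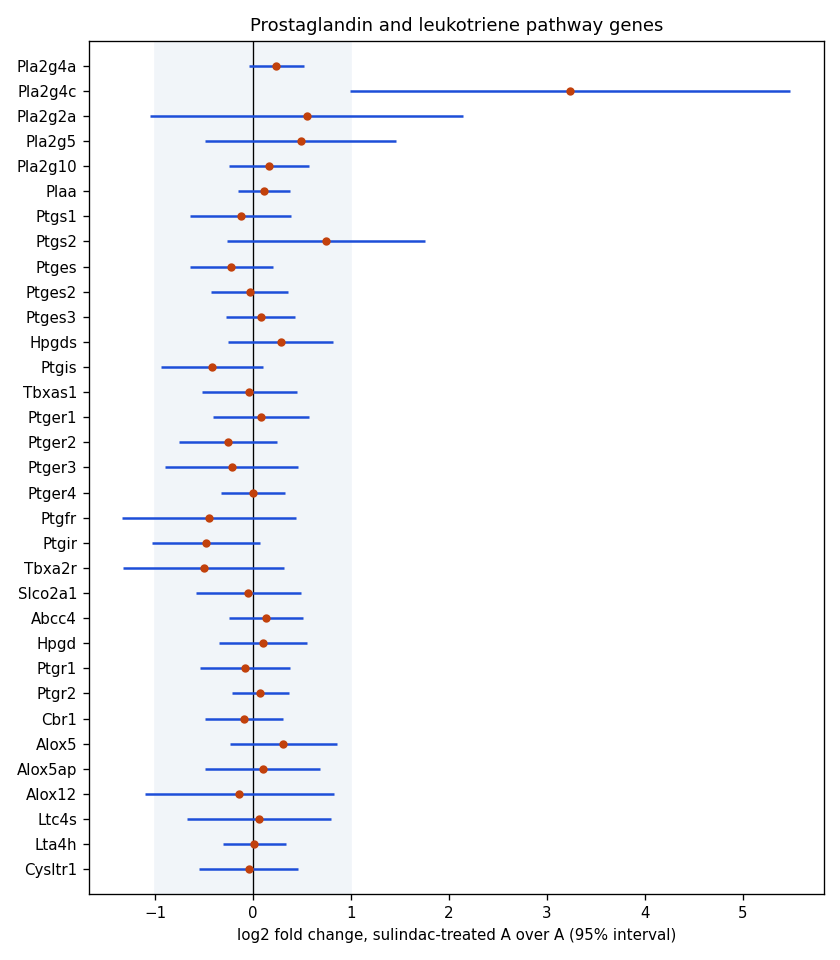
For each of the 33 tested prostaglandin and leukotriene pathway genes (y axis), the point is the log2 fold change of sulindac-treated A over A and the bar its 95% interval (x axis), with changes under 2-fold shaded. Pla2g4c, at 3.23, lies far to the right of the others, and 25 of the 33 bars lie wholly in the shaded part.

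Barrier genes were less tightly bounded than the average gene. All 56 listed genes were tested, 0 were called, 41 had a positive log2 fold change with a median of 0.162 (0.0748 without sulindac replicate 1), and 31 (55.4%) had an interval within a 2-fold change. The values of junction genes were small. Tjp1, the tight junction scaffold ZO-1, was at 187, 123, 104 and 173 CPM with sulindac and 70.7, 94.8, 161 and 123 CPM without, a log2 fold change of 0.40 (95% interval -0.21 to 1.01), and of 0.25 without sulindac replicate 1. Cdh1, E-cadherin, was at 0.18 (95% interval -0.40 to 0.76). The median over 10 claudins was 0.0499, over 10 tight junction scaffold and membrane proteins 0.0932, and over 11 adherens junction and desmosome genes, all of them positive, 0.211. Without sulindac replicate 1, Epcam (-0.07) and Pkp3 (-0.10) of the last group were negative and the others stayed positive. The desmosomal Dsp moved from 0.42 to 0.09 and Cdh1 from 0.18 to 0.02.

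The secreted layer varied far more between mice. Ang4 (chr14:51763878-51773590), an antimicrobial ribonuclease of goblet and Paneth cells, had the largest positive log2 fold change of all genes tested, 4.61 (95% interval 2.47 to 6.76), at an unadjusted p of 0.00174 and an adjusted p of 1 in edgeR. Its CPM were 108, 259, 2.18 and 561 with sulindac, 8.45, 7.78, 7.40 and 15.1 in A and 8.38, 158, 794 and 647 in WT. In the sulindac and in the WT group 3 of 4 mice were above 100 CPM, and all 4 A mice were at 15.1 CPM or below, while sulindac replicate 3 was the lowest of all 12. The groups therefore overlapped, and the highest sulindac mouse was 258 times the lowest, against 2.04 times among the A mice and 94.7 times among WT. Clca1, a goblet cell mucus protease, took the same order of mice within the sulindac and within the WT group, at 1789, 2686, 361 and 4465 CPM with sulindac, 1017, 580, 988 and 1404 CPM in A and 939, 1808, 5293 and 4261 CPM in WT, with a log2 fold change of 1.25 (95% interval -0.03 to 2.53). Retnlb, a goblet cell antimicrobial protein, was the 1 barrier gene without overlap, beside 0.666% of all genes that were higher without overlap. It was at 415, 326, 506 and 664 CPM with sulindac and 299, 293, 177 and 294 CPM in A, a log2 fold change of 0.86 (95% interval 0.31 to 1.41) at an unadjusted p of 0.00609 in edgeR, and at 273, 358, 597 and 568 CPM in WT, a range that held 3 of the 4 sulindac mice.

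Muc2, the main mucin of the colon, was at 2591, 13042, 3619.9 and 2955 CPM with sulindac and 3507, 3212, 3136 and 8286 CPM without. Sulindac replicate 2 was the highest of the 8, and the log2 fold change was 0.30 (95% interval -0.91 to 1.51). Sprr2a3, a small proline-rich protein gene, was at 293, 94.7, 151 and 194 CPM and 132, 63.1, 80.4 and 72.2 CPM, with 1.09 (95% interval 0.34 to 1.84), and shares 69.7% of its stretches with its close copies. Lypd8, which keeps flagellated bacteria from the epithelium, was at -0.03 (95% interval -0.58 to 0.52). The lectin Reg3b gave the smallest value of the list, -0.84 (95% interval -4.44 to 2.76), and the widest interval. It was at 37.2, 2109, 14.8 and 61.1 CPM with sulindac, 2845, 4.56, 1042 and 147 CPM in A and 1746, 1.74, 0.646 and 6.12 CPM in WT. Each group held both low mice and mice above 1000 CPM, and the highest mouse was 142 times the lowest with sulindac, 624 times in A and 2700 times in WT. Without sulindac replicate 2 the log2 fold change was -4.74. A change of over 4-fold in either direction thus remained within its interval.

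**Figure D4:**
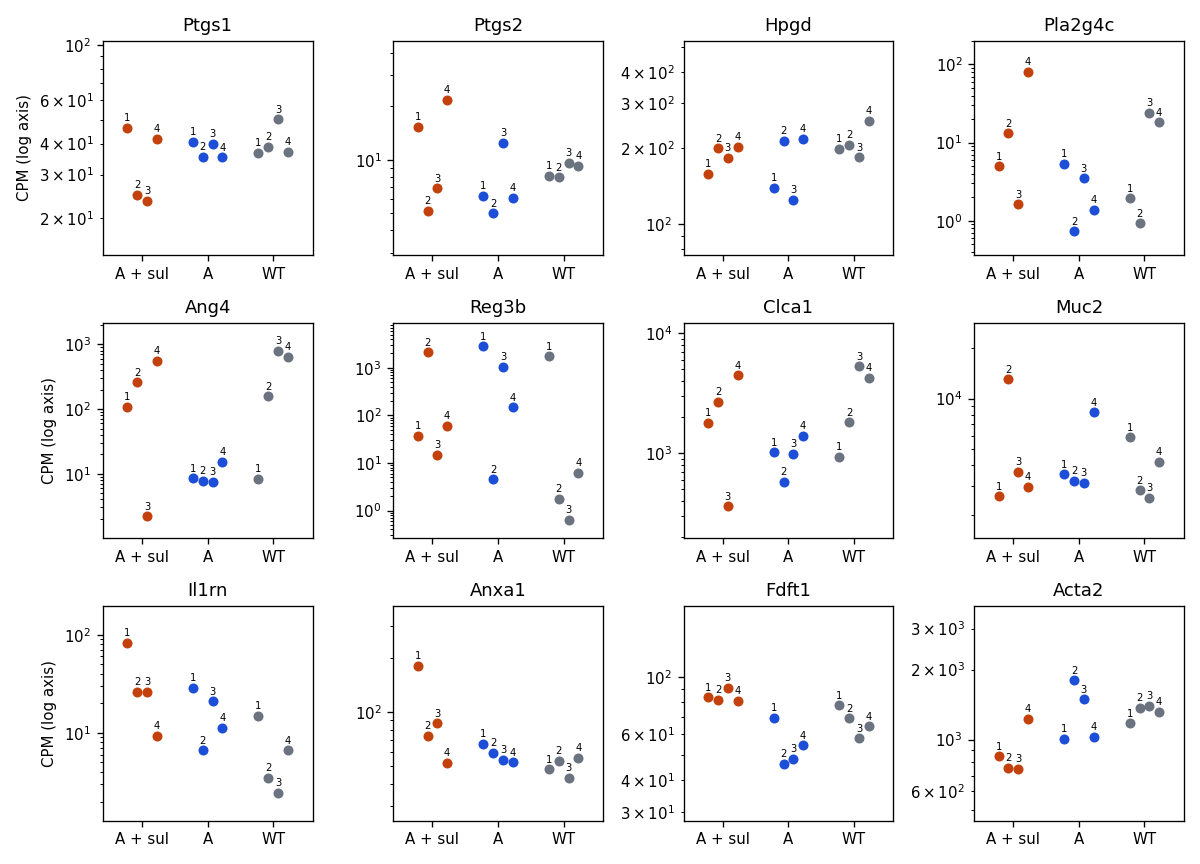
CPM (log axis) of 12 genes in each mouse of the sulindac-treated A (A + sul), A and WT groups, with the replicate number beside each point. Ang4, Reg3b and Pla2g4c spread over more than 10-fold within the sulindac group, while the 4 sulindac values of Fdft1, between 80.5 and 90.7 CPM, lie above all 4 A values.

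Of 54 inflammatory genes 33 were tested and the other 21 fell below the filter. None was called, the median log2 fold change was 0.112, and 4 had an unadjusted p under 0.05, all with lower means after sulindac, beside 1.74% of all genes with such a p and 1.2% that were lower without overlap. Il6, Il17a and Cxcl1, classical inflammatory signals named here after their values were seen, were below the filter and at or below 1.05 CPM in all 12 libraries. The 4 genes were Csf1, the macrophage growth factor, and the chemokines Ccl2, Ccl7 and Ccl25. Csf1 was at 19.1, 19.9, 15.05 and 21.98 CPM with sulindac and 23.9, 29.7, 24.9 and 27.2 CPM without, with no overlap and a log2 fold change of -0.46 (95% interval -0.81 to -0.11). Ccl2, which recruits monocytes, was at 1.25, 1.48, 1.43 and 1.74 CPM and 2.88, 2.01, 2.11 and 3.03 CPM, also with no overlap, a log2 fold change of -0.75 (95% interval -1.29 to -0.22). Ccl7 gave -0.70 (95% interval -1.25 to -0.14), again without overlap. In WT these 3 genes were at 20.7 to 23.5, 1.25 to 2.26 and 0.934 to 2.04 CPM, nearer to the sulindac mice than to the A mice in the mean. Ccl25, a chemokine of the small intestine, was at 11.1, 11.96, 11.5 and 14.9 CPM with sulindac and 49.6, 11.97, 22.9 and 11.2 CPM without, the high A mice being replicates 1 and 3, which also held small intestinal transcripts.

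Il1rn, the interleukin 1 receptor antagonist, had the largest positive value, 1.11 (95% interval -0.23 to 2.44), from 82.6, 26.02, 26.2 and 9.28 CPM with sulindac and 28.98, 6.62, 21.01 and 11.2 CPM without. Replicate 1 of the sulindac group was the highest of the 8, and without it the log2 fold change was 0.27. Socs3, a feedback inhibitor of cytokine signalling, was at 22.2, 213, 16.2 and 21.1 CPM with sulindac and 42.3, 26.1, 29.5 and 59.4 CPM without, where replicate 2 was high and the other 3 sulindac mice were below all A mice. Il1b and Tnf were at 0.15 (95% interval -0.59 to 0.89) and 0.39 (95% interval -0.98 to 1.76). Ly6g, a neutrophil surface gene that was below the filter and is named after its values were seen, was at 12.8, 0.765, 1.12 and 0.211 CPM with sulindac and at most 0.513 CPM in A, with sulindac replicate 1 apart. The neutrophil genes S100a8, Cxcr2 and Retnlg were at or below 0.574 CPM in that same library.

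The foetal-like and wound repair genes bear on the injury the drug was given to cause. Of 11 foetal marker genes 10 were tested, 0 were called and 8 were positive, with a median log2 fold change of 0.158, and of 0.146 without sulindac replicate 1. Set against WT, the median of the 10 was 0.786 for the sulindac mice and 0.501 for the untreated A mice, with 0 called in either, and these 3 comparisons share libraries. Anxa1, a calcium-dependent membrane-binding annexin, was at 181, 73.8, 86.8 and 52.2 CPM with sulindac, 66.8, 59.5, 54.4 and 52.6 CPM in A and 48.1, 53.6, 43.00 and 55.8 CPM in WT, a log2 fold change of 0.77 (95% interval 0.05 to 1.49) against A. Anxa3 was at 66.7, 48.4, 30.97 and 20.7 CPM and 30.9, 24.2, 21.97 and 26.1 CPM, with 0.71 (95% interval 0.02 to 1.39). Anxa8 was at 23.2, 5.41, 3.23 and 2.85 CPM and 3.89, 4.31, 3.70 and 2.97 CPM, with 1.25 (95% interval -0.09 to 2.59). Sulindac replicate 1 was the highest of the 8 for all 3, and without it the values were 0.27 for Anxa1, 0.37 for Anxa3 and 0.05 for Anxa8.

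The stem cell antigen gene Ly6a was at 109, 113, 85.2 and 55.3 CPM with sulindac, 94.3, 66.97, 55.4 and 66.8 CPM in A and 60.5, 47.5, 43.7 and 49.4 CPM in WT, with a log2 fold change of 0.36 (95% interval -0.16 to 0.89) against A. All 4 sulindac mice and all 4 A mice were above the WT mean of this gene, and the sulindac and A mice overlapped. It shares 20.3% of its stretches with Ly6c1. The remaining foetal genes had log2 fold changes of 0.20 for Ly6c1, 0.11 for Ly6e, 0.12 for the keratin Krt7, 0.11 for Anxa5 and -0.51 for Ly6d. Anxa6 was at -0.42 (95% interval -0.76 to -0.08), at an unadjusted p of 0.0203 in edgeR. Krt7, at 132 to 189.8 CPM with sulindac and 114 to 208 CPM in A, lay above its WT range of 69.3 to 97.3 CPM in all 8 A libraries.

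Of 29 tested wound repair genes, 0 were called and 23 were positive, with a median of 0.206. Without sulindac replicate 1 the median was 0.0232 and 15 were positive. Sulindac replicate 1 was the highest mouse for this list. The mean log2 CPM was 0.891 above the A mean in sulindac replicate 1 and -0.276 to 0.304 in the other 3, against -0.342 to 0.393 in the A mice themselves. Mmp10, an epithelial wound edge metalloprotease, was at 21.97, 0.717, 0.995 and 0.738 CPM with sulindac and 1.74, 0.182, 1.20 and 0.103 CPM without, and its log2 fold change of 2.98 (95% interval 0.27 to 5.71) became 0.04 without that library. The same library was highest of the 8 for the collagenase Mmp13 (27.5, 5.69, 7.40 and 9.96 CPM against 8.65, 5.41, 11.8 and 9.33 CPM) and for the basal keratin Krt14 at 3.03 CPM. The log2 fold change was 0.54 for Mmp13 and 1.58 for Krt14, and -0.19 and 0.61 without that library. Timp1, a metalloprotease inhibitor, was at 6.10, 3.97, 4.48 and 4.69 CPM with sulindac, 4.90, 3.10, 3.47 and 2.82 CPM in A and 1.28, 1.23, 1.01 and 1.45 CPM in WT. It was called in both comparisons with WT (adjusted p of 0.0086 with sulindac and 0.0417 without, edgeR), and between the A groups its log2 fold change was 0.44 (95% interval -0.09 to 0.98), and 0.30 without sulindac replicate 1. Mmp7, a matrilysin of Paneth cells and tumours, gave the smallest value, -1.59 (95% interval -3.77 to 0.58).

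**Figure D5:**
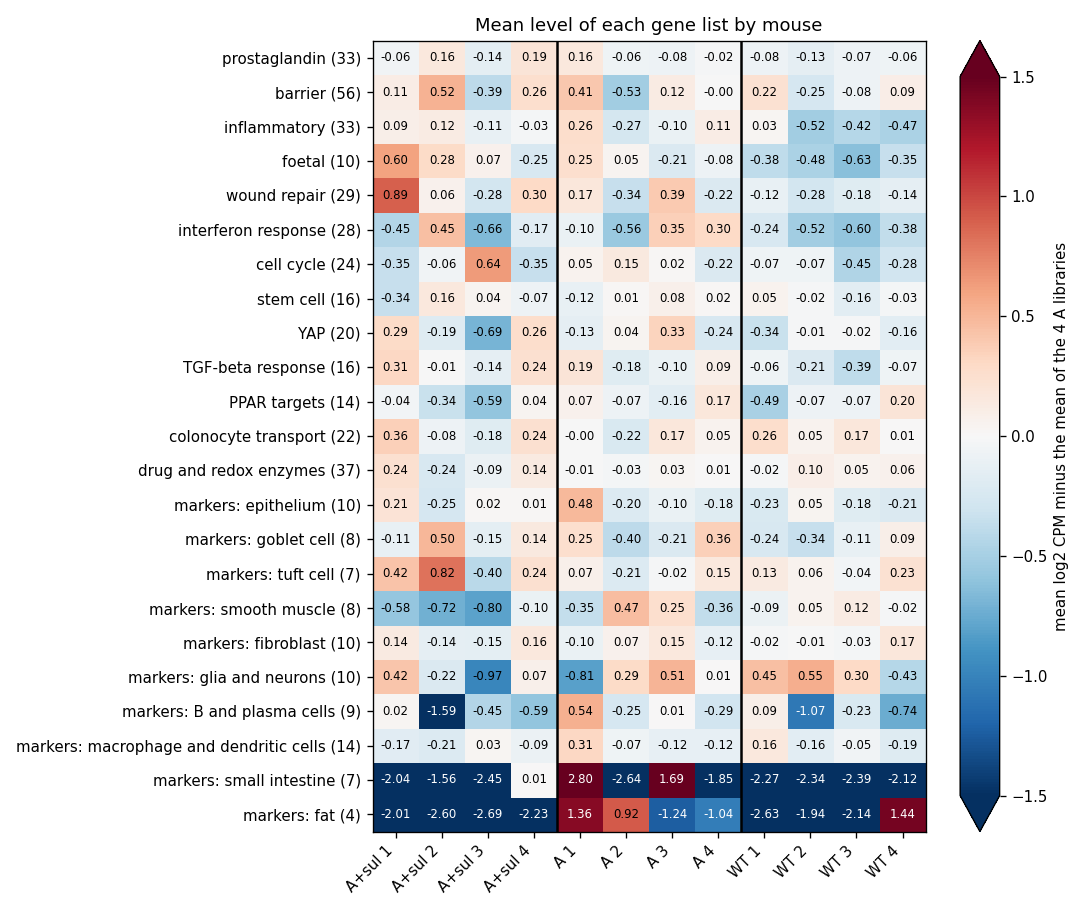
Mean log2 CPM of each gene list (rows, number of genes in brackets) in each of the 12 mice (columns), minus the mean of the 4 A mice, with colours limited to values between -1.5 and 1.5. The foetal (0.60) and wound repair (0.89) lists are highest in sulindac replicate 1, and B and plasma cell genes are lowest in sulindac replicate 2 (-1.59). Fat and small intestine markers split the A mice, and small intestine markers also spread over the sulindac mice.

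Stem cell, YAP and cell cycle genes gave no call either. The medians were 0.0223 over 16 stem cell genes, -0.0202 over 20 YAP targets and 0.0483 over 24 cell cycle genes, and all 24 cell cycle intervals lay within a 2-fold change. Without sulindac replicate 1 the stem cell median was 0.113, the YAP median -0.153 and the cell cycle median 0.148. Lgr5, the crypt base stem cell receptor, was at 6.31, 5.21, 15.2 and 7.27 CPM with sulindac and 7.38, 9.30, 9.68 and 5.74 CPM without, a log2 fold change of 0.07 (95% interval -0.63 to 0.78). Sulindac replicate 3 had the highest Lgr5 and also the highest mean of the cell cycle list, 0.64 above the A mean. Nkd1, a Wnt target, was at -0.65 (95% interval -1.12 to -0.18) and Slc12a2 at 0.43 (95% interval -0.19 to 1.05). Interferon response genes had a median of -0.168 over 28, from -0.91 for Isg15 to 0.74 for Gbp4, and sulindac replicates 2 and 3 lay at opposite ends, at 0.454 and -0.663. Without sulindac replicate 1 the interferon median was -0.0533.

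Enzymes that act on sulindac itself, which is a prodrug reduced to its active sulphide and oxidised to a sulphone, had a median of -0.188. Of 9 tested, 0 were called, 3 had a positive log2 fold change and 8 had intervals within a 2-fold change. The reductase Msra was at 0.05 (95% interval -0.32 to 0.42) and the flavin monooxygenase Fmo5 at 0.01 (95% interval -0.56 to 0.57), while Fmo1 was at -0.31 (95% interval -1.06 to 0.45) with sulindac replicate 2 low. Slc7a11, the cystine carrier and a target of NRF2, was at 20.8, 3.20, 8.83 and 5.11 CPM with sulindac and 4.09, 2.98, 4.21 and 3.13 CPM without, a log2 fold change of 1.41 (95% interval 0.32 to 2.50) at an unadjusted p of 0.0169 in edgeR, and of 0.65 without replicate 1.

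The mix of tissue in the samples differed between mice. In bulk samples fewer cells of a type and less RNA per cell cannot be told apart. All 8 smooth muscle markers had negative log2 fold changes, with a median of -0.568. Of them 5 had an unadjusted p under 0.05 in edgeR, beside 1.74% of all genes that were lower at such a p. Des, the muscle intermediate filament, was at 457, 370.5, 344 and 577 CPM with sulindac and 546, 977, 853 and 514 CPM without, and Acta2 at 848, 754, 749.9 and 1225 CPM and 1009, 1799, 1487 and 1026 CPM. The groups overlapped for all 8, sulindac replicate 4 lying among the A mice, and the summed level per total reads, 4153 CPM with sulindac against 6292 CPM without, gave no call in an exact permutation test (two-sided p = 0.143, 0.741 adjusted over 21 library values). All 9 tested B and plasma cell genes were also negative, with a median of -0.674 (-0.928 without sulindac replicate 1), and Ighm was at -0.07. Immunoglobulin genes took 0.18% of reads in sulindac replicate 2 and 1.31% in A replicate 1, and 0.479% to 0.597% in the other 6. All 7 tested tuft cell markers were positive with a median of 0.307, sulindac replicate 2 being highest. Epithelial and fibroblast markers had medians of -0.0204 and 0.0249, and each of their intervals lay within a 2-fold change.

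Fat and small intestine separated the A mice among themselves, and small intestine markers also differed among the sulindac mice. Cfd was represented by 1 read over the 4 sulindac libraries and by 733, 317, 16 and 30 reads in A replicates 1 to 4. The ratio of reads scaled to library size, A over sulindac, was 1240 (95% counting interval 222 to 49000), and the unadjusted p 0.00024 in edgeR, the smallest of all genes. In WT, Cfd was at 0 in 3 libraries and at 44.2 CPM in replicate 4. Adipoq, the defining adipocyte hormone, was at 0 in all 4 sulindac libraries, 17.9, 11.1, 0.398 and 0.564 CPM in A and 0.0511, 0, 0.0923 and 16.3 CPM in WT, and Plin1, Lep and Retn were likewise highest in A replicates 1 and 2 and WT replicate 4. Car3, abundant in adipocytes, was at 3.44, 1.82, 3.05 and 2.48 CPM with sulindac and 65.5, 67.3, 4.16 and 6.36 CPM without. The summed level of the 8 fat markers, per total reads, was 29.96 to 58.1 CPM with sulindac and 61.3 to 233.7 CPM in A, without overlap (exact permutation p = 0.0286, two-sided, the smallest that 70 arrangements can give, and 0.601 after adjustment), and the order was lost when library sizes were scaled by TMM. The part of adipose tissue in these low values was not tested. Fabp6, the ileal bile acid binding protein, was at 0.574, 2.68, 3.30 and 5.64 CPM with sulindac and 479.5, 0.668, 82.3 and 1.28 CPM without, and Apoa1 and Apoa4 were also highest in A replicates 1 and 3. Lct, the lactase of the small intestine, was at or below 0.316 CPM in all 8. The summed small intestine markers, per total reads, were at 552, 260, 263 and 589 CPM with sulindac. In A they were at 1310, 233, 792 and 355 CPM, so sulindac replicates 1 and 4 lay above A replicates 2 and 4. The medians were -2.12 over the 4 tested fat markers and -2.93 over the 7 tested small intestine markers, and Fabp6 was at -5.51 with all libraries and at -3.20 without A replicate 1.

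The remaining lists also held 0 called genes. The medians were 0.0483 over 16 TGFβ response genes (-0.011 without sulindac replicate 1), Id3 being at -0.23, 0.0761 over 20 apoptosis and p53 genes, 0.0785 over 17 ERK output genes, -0.0406 over 15 clock genes and 0.0604 over 22 colonocyte transport genes. Among the last, Scnn1g, a subunit of the epithelial sodium channel, was at 10.1, 0.430, 3.54 and 1.95 CPM with sulindac and 1.54, 1.70, 1.54 and 1.49 CPM without, a log2 fold change of 1.37 (95% interval -0.15 to 2.90). Sulindac replicate 1 was the high mouse, and without it the value was 0.30. PPAR targets had a median of -0.145 over 14, the lowest being Fabp4, also an adipocyte gene, at -1.43 and Angptl4 at -1.02. Macrophage and dendritic cell, T and NK cell, endothelial and enteroendocrine markers had medians of -0.153, -0.0601, -0.0284 and -0.0932, goblet cell markers 0.169, glia and neuron markers -0.173 and mast cell and eosinophil markers 0.0892. Without sulindac replicate 1 the glia and neuron median was -0.498 and the mast cell and eosinophil median 0.198. In the glial list S100b was at -0.72 (95% interval -1.26 to -0.18) and the neuronal Chat at 0.57. Of 10 neutrophil markers 2 and of 9 pancreas markers 1 were tested, and these 3 lay between -0.342 and 0.0164.

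Since no gene passed, 10 genes in each direction are given as a description. They had the smallest unadjusted p among genes without overlap whose mean level reached a log2 CPM of 3, and none of them passed the adjusted threshold. The higher genes included Fdft1, Gsdmc3, Lss, Insig1, Scd2, Retnlb, Aacs, Idi1 and Pparg. Fdft1, squalene synthase, was at 83.2, 81.3, 90.7 and 80.5 CPM with sulindac and 69.4, 46.1, 48.2 and 54.4 CPM without, a log2 fold change of 0.63 (95% interval 0.31 to 0.95) at an unadjusted p of 0.00132 in edgeR. The sulindac mice lay within 80.5 and 90.7 CPM and the highest A mouse was replicate 1. Fdft1 shares 17.5% of its stretches with Ctsb, which overlaps it on the opposite strand. Of these, Fdft1, Lss, Insig1, Aacs and Idi1 belong to or regulate cholesterol synthesis. Gsdmc3, a gasdermin, was at 1.23 (95% interval 0.55 to 1.90) and shares 50.3% of its stretches with Gsdmc2. Pparg, the nuclear receptor of differentiated colonocytes, was at 181, 146, 167 and 171 CPM with sulindac, 115, 120.1, 126 and 137 CPM in A and 175, 160, 137 and 153 CPM in WT, a log2 fold change of 0.42 (95% interval 0.13 to 0.72).

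The lower 10 were Cfd, Gm42047, Car3, Igkv14-111, Ppp1r14a, Lyz1, Eps8l1, Phlda3, Apbb1 and Tnni1. Gm42047, a predicted gene, was at 19.9, 11.3, 9.83 and 11.8 CPM with sulindac, 21.1, 41.02, 31.1 and 42.3 CPM in A and 13.4, 11.6, 10.6 and 17.3 CPM in WT, and 70.3% of its stretches are shared with other genes. The 4 A mice lay above all sulindac and all WT mice, which overlapped. Ppp1r14a, a smooth muscle inhibitor of myosin phosphatase, was at -0.61 (95% interval -0.93 to -0.28), and Tnni1, a troponin, at -0.74 (95% interval -1.19 to -0.29). Lyz1, the Paneth cell lysozyme, was at 3.03, 2.63, 1.49 and 4.69 CPM with sulindac and 22.1, 5.59, 19.5 and 5.08 CPM without, where the high A mice were again replicates 1 and 3. It shares 28.5% of its stretches with Lyz2. Igkv14-111, an immunoglobulin light chain segment, was at -2.41 (95% interval -3.63 to -1.19), Eps8l1 at -0.93, Phlda3, a p53 target, at -0.64 and Apbb1 at -0.68.

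Single libraries were compared by the genes, out of 11020 at or above that level, that lay beyond the other 7 by at least 2-fold. Sulindac replicate 2 had the most, 25 above and 41 below, followed by A replicate 1 with 24 and 7, sulindac replicate 3 with 1 and 22, sulindac replicate 1 with 13 and 4, and sulindac replicate 4 with 8 and 0. A replicates 2, 3 and 4 had at most 4 each. In replicate 1 the genes farthest above were Hoxa9, a positional homeobox gene, at 33.9 CPM against 4.43 to 6.50 CPM in A, then Gm36640, the retinol dehydrogenase Dhrs9 (167 CPM), the retinoic acid enzyme Aldh1a3 (38.8 CPM) and Il1rn. WT replicate 3 also had a high Hoxa9, at 26.9 CPM. The 4 genes below were Slc15a2, Saa2, Osr2 and Saa1, with the peptide carrier Slc15a2 at 0.157 CPM against 3.24 to 24.5 CPM in A. WT replicate 2 was as low, at 0.103 CPM. Of the 17 genes apart in replicate 1, Gm36640 and Gapdh lie in the chromosome 6 stretch, and Mmp13, Anxa1, Il1rn the TGFβ target Pmepa1 and Saa1 belong to the gene lists above.

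In replicate 2 the sugar carrier Slc5a9 (84.04 CPM against 5.04 to 11.6 CPM in A), the innate adaptor Tifa, Tat, Gna14 and the fucosyltransferase Fut2 were farthest above, and Ighv1-9, Ighv9-3, Slc37a2, Ly6g6c and Ttr farthest below. Fut2 was at 565 CPM against 114 to 154 CPM in A. Reg3b was at its sulindac maximum and the immunoglobulin share at its minimum in that mouse. In replicate 3 Serpina3n was the 1 gene above, and Pdk4, Ang4, Ggt1, Efna3 and Btnl7-ps were farthest below, with Pdk4, a brake on glucose oxidation, at 20.1 CPM against 76.7 to 195 CPM in A. In replicate 4 Pla2g4c, Igkv8-21, the calcium-binding S100g and the immediate early genes Fosb and Fos were farthest above, with Fos at 292 CPM against 58.4 to 133 CPM. Among the A mice, replicate 1 was highest for immunoglobulin segments and Fabp6 and lowest for mitochondrial genes such as mt-Nd4l and mt-Atp8, replicate 2 had Reg3b below the others, and replicate 3 had the interferon gene Oas3 above them. The genes farthest out thus differed from mouse to mouse.

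Against WT, 9 genes were higher in the sulindac-treated A mice (0.0507% of 17742) and 0 lower (0%) in edgeR, with 1607 (9.06%) at an unadjusted p under 0.05. Of the 9, 8 were also among the 25 called between untreated A and WT, a comparison that shares the WT libraries, and 5 lay in the chromosome 6 stretch. Without sulindac replicate 1, 18 genes were called, 11 of them in that stretch and 14 also called between A and WT. The oestrogen receptor Esr1 was at 11.5, 15.2, 16.6 and 17.4 CPM with sulindac, 25.3, 14.9, 16.1 and 14.2 CPM in A and 1.99, 2.56, 2.21 and 2.34 CPM in WT. Igsf23 was the 1 gene called with sulindac and not without, at 22.3, 17.3, 17.04 and 15.8 CPM with sulindac, 41.5, 8.57, 20.6 and 15.7 CPM in A and 5.11, 5.64, 4.24 and 5.81 CPM in WT, where the A mice spread more widely and overlapped the sulindac mice.

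The other drug comparison at day 30, antibiotics in BA mice (Braf V600E/+ with Alk5fl/fl) against BA mice, 5 libraries each, called 2172 of 16680 genes (13%). The difference between the sulindac effect in A and the antibiotic effect in BA was tested as an interaction and was called for 75 genes higher (0.41% of 18314) and 15 lower (0.0819%), with 3116 (17%) at an unadjusted p under 0.05. Of the genes named above these included Insig1, Pparg and Gm42047. Insig1 had a log2 fold change of 0.77 with sulindac and -0.50 with antibiotics (difference 1.28, adjusted p 0.0446 in edgeR). The values were 0.42 and -0.30 for Pparg (adjusted p 0.0109) and -1.35 and 1.40 for Gm42047 (adjusted p 0.0227). None of these genes was called with sulindac alone. With antibiotics alone edgeR called Pparg (adjusted p 0.0044) and Gm42047 (0.0335) but not Insig1 (0.0611). They were among the genes picked above by their p in the sulindac comparison, which is a part of this difference. Without A replicate 2 or without replicate 5 of the antibiotic group 25 genes were called, and without sulindac replicate 3, 547. Genotype, drug and the timing of the drug differ together between these comparisons and cannot be told apart. Sulindac had been stopped well before the tissue was taken. No end of the antibiotic treatment is given in the sources used here. Group size differs as well, so the counts of called genes in the 2 drug comparisons are not on an equal footing.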

How the data were processed

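Raw read counts per gene were used as deposited. Per the labels and the study's methods, the authors made these counts from proximal colon RNA (RNeasy, TruSeq v2 without strand, NextSeq, paired 36-base reads) with FastQC 0.11.8, Trim Galore 0.6.4, HISAT2 2.1.0 on GRCm38 and featureCounts 1.6.4. Settings for strand and for reads that match several places are not given in the sources used here. The share of each named gene's 36-base stretches found in other genes was therefore computed from GENCODE M21 transcripts. It is given for some of the affected genes, not for all. Of 55421 genes, 55154 had a symbol, and the gene lists hold 569 entries, with 2 symbols that matched no gene.

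Genes passing filterByExpr were tested with edgeR 4.0.16 (R 4.3.3; TMM, quasi-likelihood, two-sided, Benjamini-Hochberg, threshold 0.05), on the groups compared alone. The 95% interval of each log2 fold change used its standard error with the posterior quasi-dispersion. The fit was tested on simulated counts with known changes before use. CPM values are counts scaled by TMM factors over the day-30 groups, summed marker levels are per total reads, and lists were averaged on log2 CPM with a prior count of 2. Library values were compared by exact permutation tests over 70 arrangements. Samples were grouped by their labels, and p-values measure the spread between these samples. The interval of the Cfd read ratio and the 3-count floor cover counting error only. Alternatives were RLE scaling, DESeq2 1.42.0, limma-voom 3.58.1, no filter, all 5 day-30 groups in 1 fit, a replicate block and leaving out each library, with, chosen after seeing the data, leaving out both replicate 1 libraries. Equal replicate numbers did not pair the mice. Genes were named by rule: all prostaglandin, foetal and targeted genes, from other lists the called, the extreme and up to 6 for their role, 10 genes in each direction over all genes, and 5 on each side per library. Some genes are not reported here. The members and lists were chosen with earlier results of these data known.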

Additional observations from a re-analysis of the deposited data

Results flagged for a closer look

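In groups of 4 mice, a mouse was taken as apart where its gap to the nearest other mouse, as a part of the group's range, passed Dixon's 95% critical value. This held for 28 of 284 groups tested (9.86%). Chance flags about 1 in 20 independent groups, but these groups share 8 mice and many of the genes were named as extremes of their lists, so that rate is no measure for them. The causes were not tested.

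Sulindac replicate 1 stood apart in repair genes, with Mmp10, the wound edge protease, at 21.97 CPM (next 0.995) and Anxa8 at 23.2 CPM (next 5.41). It also held the 1 Cfd read of its group, 0.0522 CPM. Sulindac replicate 2 was apart in antimicrobial and immune genes. The lectin Reg3b was at 2109 CPM (next 61.1), the interferon-induced GTPase Gbp4 at 19.4 CPM (next 6.78), Mmp7 at 3.20 CPM (next 0.808) and Ptger1 at 3.97 CPM (next 2.79), while Fmo1 was low at 4.83 CPM (next 15.1). The same mouse had the most genes with at least 1 read, 27900 after rounding, and the lowest share of reads in immunoglobulin genes, 0.18% (next 0.521%).

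Sulindac replicate 3 had the fewest reads of its group, 15520000 after rounding, and was apart in the cyclin Ccne1 (16.5 CPM, next 7.77), Alox5ap (5.10 CPM, next 3.22) and, on the low side, the endothelial cadherin Cdh5 (10.01 CPM, next 16.7). Sulindac replicate 4 was apart in Pla2g4c alone, at 79.97 CPM (next 13.2).

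Among the A mice, replicate 1 was high in Fabp6 (479.5 CPM, next 82.3), Ly6d (7.18 CPM, next 3.77), Aacs (78.2 CPM, next 63.6), the summed epithelial markers (21880 CPM, next 14850) and the summed B and plasma cell markers (9175 CPM, next 3847). Its immunoglobulin share was 1.31% (next 0.597%), and its Cdh5 was low at 9.19 CPM (next 15.2). A replicate 2 was high in Fmo1 at 22.6 CPM (next 14.3). A replicate 3 was high in Ptgs2 (12.5 CPM, next 6.24) and Ptger3 (9.51 CPM, next 5.49) and low in Cbr1 (144 CPM, next 238) and Retnlb (177 CPM, next 293). A replicate 4 was high in Ang4 at 15.1 CPM (next 8.45).

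Of the genes named in the comparison, 3 differed between the sulindac effect in A mice and the antibiotic effect in BA mice in edgeR's interaction test. The difference in log2 fold change was -2.73 for Gm42047 (adjusted p 0.0227), 1.28 for Insig1 (0.0446) and 0.74 for Pparg (0.0109). These genes were among those picked by their p in the sulindac comparison, which is a part of the difference.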

How the results depend on the processing

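The count of 0 genes called between sulindac-treated A and A held in 13 of 16 alternatives, among them all fits without 1 library (0 to 0). DESeq2 called 5, no filter on low counts 1 and the replicate block 1. Sulindac-treated A against WT gave 9 calls, and 110 with DESeq2, 24 with no filter, 2 with the replicate block and 29 with all 5 groups in 1 fit. Without 1 library it gave 4 to 18, with 18 without sulindac replicate 1, 4 without WT replicate 1, 3 or 4 and 5 without WT replicate 2. A against WT gave 25 calls, 136 with DESeq2, 72 with no filter and 15 to 28 without 1 library (15, 16 and 16 without WT replicates 2, 3 and 4). The difference from the antibiotic effect gave 90 calls, 623 with DESeq2, 56 with limma-voom and 25 to 547 without 1 library. The 1 library value without overlap, the fat markers, became 0 with TMM factors. Genes apart in a single library numbered 155, 23 at a 4-fold gap and 334 when lower levels were admitted. The causes of these differences were not tested.

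Mice of equal number did not deviate together (r of -0.0568, -0.0554, -0.443 and -0.0529), so the replicate block pairs by number alone. For replicate 3 the r with its own number was the largest in size, but it was negative, so these mice deviated in opposite directions. Over 121 named genes and 1694 alternative values of the sulindac comparison, 64 values in 33 genes took the opposite direction. Of these 33 genes, 0 had an unadjusted p under 0.05 in the main edgeR fit, and the p of the reversed values was not looked at. A fit with sex as a term was not run, since both sexes were not present among the 8 libraries. Counting depth limits genes under an average log2 CPM of 0, of which 28.1% had an interval within a 2-fold change.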

Other observations

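Genes of cholesterol synthesis and its regulation were on one side. The list of 25 genes was drawn up after Fdft1, Lss, Idi1 and Insig1 had been seen among the genes with the smallest p, so its counts are a description with no test and no support for that pattern. All 25 had a positive log2 fold change of sulindac-treated A over A, against 51.6% of all genes tested. The median was 0.347, and the smallest value was 0.00741, for Ebp. None of the 25 passed the adjusted threshold in edgeR, 10 had an unadjusted p under 0.05 (against 0.882% of all genes that had one with a positive value), and 7 were higher without overlap (against 0.666%).

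By mouse, the mean log2 CPM of the list lay 0.47, 0.271, 0.383 and 0.502 above the A mean in sulindac replicates 1 to 4. The A mice were at 0.313, -0.228, 0.0211 and -0.106, so A replicate 1 lay among the sulindac mice. The WT mice were at 0.487, 0.175, 0.19 and 0.17. The medians against WT, which share libraries with the comparison above, were 0.157 for the sulindac-treated and -0.304 for the untreated A mice, in which 23 of the 25 genes were below WT, with 0 called in either. Leaving out 1 library at a time moved the median of 0.347 between 0.28, without A replicate 2, and 0.548. Insig1, which holds the sterol sensor in the endoplasmic reticulum, was at 83.2, 109.9, 69.9 and 134 CPM with sulindac, 68.3, 50.6, 57.3 and 59.6 CPM in A and 88.1, 60.8, 66.8 and 82.9 CPM in WT.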
